A study of Mus musculus with 14 samples.

Results

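Lyz2 and 6 further macrophage marker genes were followed across arrays comparing Ptdsr-deficient with wild-type mouse fibroblasts. The genes were Lyz2, Cd68, Tyrobp, Fcer1g, Mrc1, Cybb and H2-Eb1. All probes annotated to them were taken, 8 of the 20355 probes on the array, with 2 probes for Lyz2 and 1 for each other gene. The genes were chosen by their symbols with their knockout over wild-type ratios on these arrays already known, so those ratios are given as a description and were not tested. The 14 arrays were all Ptdsr-/- fibroblast RNA against wild-type fibroblast RNA, the knockout carrying Cy5 on 7 of them and Cy3 on 7. Ptdsr (current symbol Jmjd6) takes its older name from phosphatidylserine, the lipid its product was thought to bind, and that product is a JmjC-domain oxygenase found in the nucleus. The series design names 2 fibroblast cultures without saying which array used which, and the strain, the source tissue of the fibroblasts and the deleted part of the gene are not stated in the sources used here. The p-values below measure the spread between arrays, which may be technical. Wild-type RNA was seen only as the other side of each ratio, so its spread could not be told apart.

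Each value below is a log2 ratio of knockout over wild type after the array's median was set to 0, so -1 means a halving relative to the typical probe of that array. The direction is likely and not stated. On every array 1 extreme value was repeated, and it was taken to code a zero denominator. It was positive on 7 of 7 Cy5 arrays and negative on 7 of 7 Cy3 arrays. Under that reading, these are the signs it would have if the swapped arrays had been turned before deposit. If they had not been turned, the sign of every Cy3 value would be the opposite. Between 13165 and 19615 probes had a usable ratio on an array. Replicates 1 and 2 stood apart, with 6053 and 7190 cells without a usable ratio against at most 2640 on another array. One Jmjd6 probe had a mean of -0.51 ± 1.14 (SD, n = 14) and lay below 0 on 12 of 14 arrays. The other Jmjd6 probe, measured on 5 arrays, had a mean of 0.27 ± 1.10 (SD). Whether either lies in the deleted part was not tested. Ratios carry no signal level, so the labelled cell type could not be checked against the brightness of its markers. In a culture, fewer cells of a type and less RNA per cell cannot be told apart from these ratios.

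Macrophages are phagocytes that settle in most tissues. They secrete lysozyme, which cuts the peptidoglycan of bacterial walls, and digest engulfed material in lysosomes rich in the glycoprotein CD68. Their Fc and related receptors signal through small adaptor proteins that carry an immunoreceptor tyrosine-based activation motif (ITAM), among them the products of Tyrobp (DAP12) and Fcer1g (the common Fc receptor gamma chain). The mannose receptor (Mrc1) binds sugars for uptake, the NADPH oxidase (Cybb encodes its catalytic subunit) makes superoxide, and class II molecules such as the H2-Eb1 product present peptides to T cells.

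Mice have a pair of neighbouring lysozyme genes, Lyz2, expressed in macrophages, and Lyz1, known for its expression in Paneth cells of the gut. No probe was annotated to Lyz1. The sequences of both around the transcription start are shown because a cDNA spot for one may bind transcripts of the other. They are RefSeq sequences on build GRCm38.p6, minus strand, from 100 bases before to 50 bases after the start, at chr10:117282223-117282372 for Lyz2 and chr10:117292819-117292968 for Lyz1, with capitals at the bases that differ.
Lyz2: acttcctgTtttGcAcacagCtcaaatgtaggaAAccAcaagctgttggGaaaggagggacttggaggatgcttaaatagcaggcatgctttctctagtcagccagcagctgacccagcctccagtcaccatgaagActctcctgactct
Lyz1: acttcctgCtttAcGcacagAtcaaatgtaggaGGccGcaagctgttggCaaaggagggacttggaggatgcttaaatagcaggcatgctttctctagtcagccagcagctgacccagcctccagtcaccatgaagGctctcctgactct
The windows were identical at 141 of 150 bases (94.0%), and 49 of the 50 transcribed bases were the same. Which part of the transcript the Lyz2 probes cover is not stated in the sources used here, and binding of Lyz1 transcripts was not measured.

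The lowest mean ratios among the members were those of Lyz2, although Tyrobp and Fcer1g each had a lower value on a single array. On its probe 12258 the ratios with the knockout in Cy5 were -2.03, -0.62, -1.82, -1.38, -1.61, -1.81 and -0.32 on replicates 1, 3, 4, 7, 8, 9 and 13. With the knockout in Cy3 they were -3.80, -0.92, 0.02, -1.99, -2.46, -2.54 and -0.47 on replicates 2, 5, 6, 10, 11, 12 and 14. Replicate 6 was the 1 array above 0 and replicate 2 the lowest, and the dye orientations overlapped. The mean was -1.55 ± 1.03 (SD, n = 14), a 2.94-fold lower ratio in the knockout.

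The other Lyz2 probe, 17239, had no value on replicates 1 and 2. In Cy5 it stood at -1.11, -0.47, -1.39, -1.62, -1.72 and -0.79 on replicates 3, 4, 7, 8, 9 and 13. In Cy3 it stood at -0.75, -0.91, -2.18, -3.04, -2.62 and -1.07 on replicates 5, 6, 10, 11, 12 and 14. All 12 values were below 0, and 5 of the 6 Cy5 values lay within the range of the Cy3 values. The mean was -1.47 ± 0.80 (SD, n = 12), or 2.77-fold lower in the knockout. Of all 18503 probes with enough values to be tested, 26 (0.141%) lay below 0 on every array that measured them. Having been used in choosing Lyz2, these values support nothing further.

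Both Lyz2 probes ranked low on the arrays. Probe 12258 lay at the 1.14th to 52.7th percentile of the probes measured on an array (median 4.92), and probe 17239 at the 0.58th to 23.3rd (median 9.22). Ranks do not depend on how an array is centred. By mean ratio, 3 of the 18503 tested probes, probe 12258 included, lay as low as probe 12258, and 6 lay as low as probe 17239.

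The probes gave nearly the same ratio on some arrays and not on others. On replicates 7 and 8 they were -1.38 and -1.39, and -1.61 and -1.62. The largest gap, 1.36, was on replicate 4 (-1.82 against -0.47), and on replicate 6 the values were 0.02 and -0.91. Over the 12 shared arrays the mean absolute difference was 0.41 (median 0.33), the signed difference, 12258 minus 17239, averaged 0.15 ± 0.58 (SD), and Pearson's r was 0.75. This r is a description without a p, because arrays may share RNA and cultures. Over the same 12 arrays probe 12258 had a mean of -1.33 ± 0.85 (SD), so the values of replicates 1 and 2 lowered its mean.

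**Figure D1:**
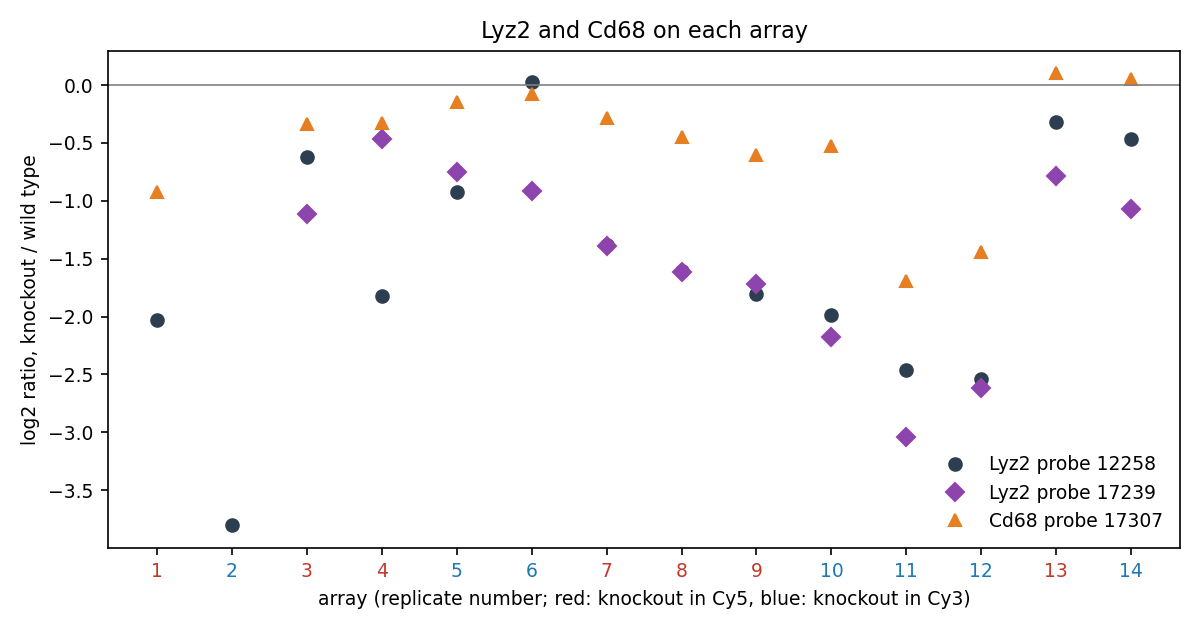
Log2 ratio of knockout over wild type (y axis) for both Lyz2 probes and the Cd68 probe on each of the 14 arrays (x axis, replicate number, red for knockout in Cy5 and blue for knockout in Cy3). Each symbol is 1 value; on replicates 7 and 8 the Lyz2 symbols cover each other. Cd68 lay above 0 on replicates 13 and 14 and lowest on replicates 11 and 12, where Lyz2 probe 17239 was also lowest.

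Ranges of replicate numbers differed in their Lyz2 means, more cleanly on probe 17239 than on probe 12258. On replicates 7 to 12 probe 17239 averaged -2.09 (range -3.04 to -1.39, n = 6), on replicates 1 to 6 it averaged -0.81 (range -1.11 to -0.47, n = 4), and on replicates 13 and 14 it averaged -0.93. Probe 12258 averaged -1.96 on replicates 7 to 12 (range -2.54 to -1.38), -1.53 on replicates 1 to 6 and -0.40 on replicates 13 and 14. Its values on replicates 1 to 6 ran from -3.80 to 0.02, its whole range over the 14 arrays. These number ranges are not groups in the labels and were picked after the values had been seen, so they were not compared by a test.

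Cd68 encodes a lysosomal membrane glycoprotein of macrophages. In Cy5 its probe, 17307, stood at -0.92, -0.34, -0.33, -0.28, -0.45, -0.61 and 0.10 on replicates 1, 3, 4, 7, 8, 9 and 13. In Cy3 it stood at -0.15, -0.08, -0.53, -1.69, -1.44 and 0.05 on replicates 5, 6, 10, 11, 12 and 14, with no value on replicate 2. Thus 11 of 13 values were below 0, replicates 11 and 12 were set off from the rest, and the orientations overlapped. The mean was -0.51 ± 0.55 (SD, n = 13), a 1.43-fold lower ratio in the knockout. The median of -0.34 lay closer to 0 than the mean.

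Cd68 varied from array to array along with Lyz2. Against the mean of the Lyz2 probes its Pearson's r was 0.93 and Spearman's rho 0.95 over 13 arrays. On replicates 1 and 2 that mean was probe 12258 alone, and with both left out r was 0.93 over 12 arrays. Without replicates 11 and 12, the arrays farthest from the median Lyz2 ratio among these 13, r was 0.89 and rho 0.91 over 11 arrays. Among 10258 probes with 1 gene symbol and at least 12 shared arrays, Cd68 had the 4th highest r, and the median r over these probes was 0.0039. The other 4 of the first 5 were Ppa1 (0.98 over 12 arrays), Gng12 (0.97 over 14), Ywhab (0.93 over 13) and Ica1 (0.93 over 12). Their mean ratios were near the middle of the array or moderately low, at 0.13 ± 0.43 (SD, n = 12) for Ppa1, -0.44 ± 0.88 (SD, n = 14) for Gng12, -0.18 ± 0.67 (SD, n = 13) for Ywhab and -0.09 ± 0.53 (SD, n = 12) for Ica1. Probes can thus share the array-to-array course of Lyz2 without its low mean. The 6th probe had an r of 0.92, so the order within this group rests on small differences.

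**Figure D2:**
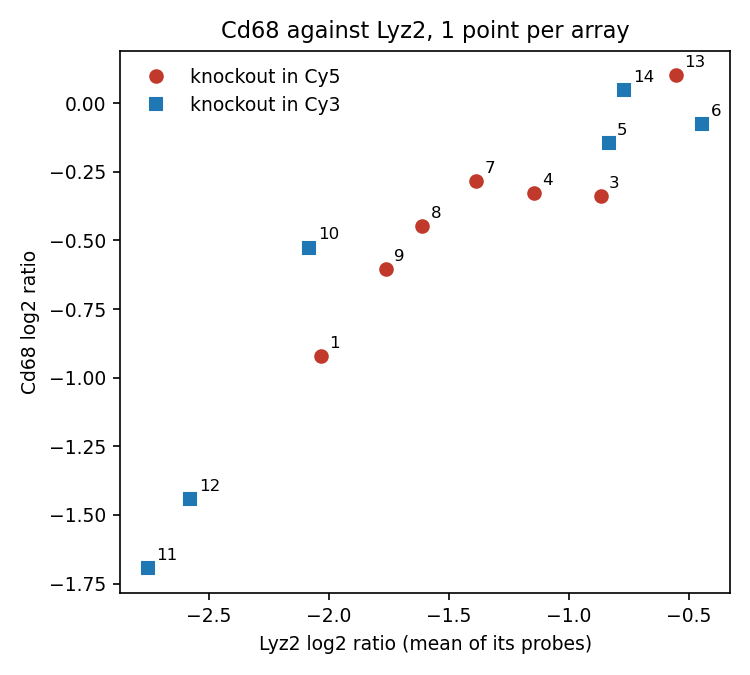
Cd68 log2 ratio (y axis) against the mean log2 ratio of the Lyz2 probes (x axis), 1 point for each of the 13 arrays with a Cd68 value, numbered by replicate; red circles have the knockout in Cy5 and blue squares in Cy3. The points run from replicates 11 and 12 at the lower left to replicates 6, 13 and 14 at the upper right (r = 0.93). On replicate 1 the Lyz2 value is that of probe 12258 alone.

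The RefSeq sequence around the start of Cd68 is given because it moved with Lyz2 and because PU.1, a transcription factor of myeloid cells, binds purine-rich sites. The window on build GRCm38.p6 runs from 250 bases before to 50 bases after the start on the minus strand at chr11:69666121-69666420, and capitals mark the letters GAGGAA on either strand.
Cd68: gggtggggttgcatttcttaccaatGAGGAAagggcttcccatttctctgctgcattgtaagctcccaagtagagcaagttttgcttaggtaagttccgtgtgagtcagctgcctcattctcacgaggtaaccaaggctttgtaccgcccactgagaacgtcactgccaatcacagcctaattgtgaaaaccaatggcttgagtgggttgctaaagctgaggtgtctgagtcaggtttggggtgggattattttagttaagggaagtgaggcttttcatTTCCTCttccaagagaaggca
The letters occurred 2 times in this window, 3 times in that of Mrc1, once in that of Cybb and not in those of Lyz2, Fcer1g and H2-Eb1. They occurred in 28.3% of all 32851 windows of this length in the table, which held 6 of the 7 members. A match is a run of letters and not a measured binding site. Only this run was searched, so a window without it may still hold other purine-rich runs.

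Tyrobp and Fcer1g, the ITAM adaptor genes, did not follow Lyz2 in the same way. In Cy5 the Tyrobp probe (15516) stood at -1.49, -0.54, 0.76, 0.41, -0.30, 0.13 and -0.89 on replicates 1, 3, 4, 7, 8, 9 and 13. In Cy3 it stood at -5.64, 0.22, -0.03, -0.24, -0.63, -0.39 and -0.46 on replicates 2, 5, 6, 10, 11, 12 and 14. Replicate 2 was far below the other 13 arrays, whose values ran from -1.49 to 0.76. The mean was -0.65 ± 1.54 (SD, n = 14), but -0.27 without replicate 2 and -0.16 without replicates 1 and 2. Its r with Lyz2 was 0.67 over 14 arrays with a rho of 0.32, and r was 0.11 without replicates 1 and 2.

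Fcer1g (probe 3091) had values on 11 arrays. In Cy5 they were -0.84, -3.91, -0.64, 0.31 and 0.79 on replicates 4, 7, 8, 9 and 13. In Cy3 they were -0.71, 1.17, -0.43, 1.63, 0.93 and -0.80 on replicates 2, 5, 6, 11, 12 and 14. Of 11 values, 6 were below 0, both orientations straddled 0, and replicate 7 alone lay under -1. The mean of -0.23 ± 1.51 (SD, n = 11) was 0.14 without replicate 7, so its sign rested on 1 array. Its r with Lyz2 was -0.12 over 11 arrays.

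The mannose receptor gene Mrc1 (probe 3703) also had values on 11 arrays. In Cy5 they were 0.34, 0.64, -0.58, -0.69 and -1.04 on replicates 1, 7, 8, 9 and 13. In Cy3 they were 0.98, 1.40, -0.34, 1.17, -0.30 and -1.27 on replicates 5, 6, 10, 11, 12 and 14. The lowest values were on replicates 13 and 14, where Cd68 was highest. The mean was 0.03 ± 0.92 (SD, n = 11) and its r with Cd68 was -0.26 over 11 arrays.

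Cybb and H2-Eb1 had the highest means of the members, and their Cy5 and Cy3 means lay on opposite sides of 0. Cybb (probe 4843) stood in Cy5 at 0.14, 0.33, -1.46, -0.74 and -0.63 on replicates 3, 4, 7, 8 and 9. In Cy3 it stood at 1.16, -0.58, 0.05, 2.16, 0.82, 0.86 and 0.60 on replicates 2, 5, 6, 10, 11, 12 and 14. Of 5 Cy5 values 3 were below 0 and 6 of the 7 Cy3 values above it, and replicates 5 and 6 lay within the Cy5 range. The mean was 0.23 ± 0.98 (SD, n = 12), and -0.47 ± 0.72 (SD, n = 5) in Cy5 against 0.72 ± 0.86 (SD, n = 7) in Cy3.

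H2-Eb1 (probe 5490), a class II beta chain gene, stood in Cy5 at -0.43, -1.02, -2.06, -1.14, -0.62 and -0.10 on replicates 3, 4, 7, 8, 9 and 13. In Cy3 it stood at 2.19, 3.75, 1.12, 0.99, 0.69 and -0.49 on replicates 2, 5, 10, 11, 12 and 14. All 6 Cy5 values were below 0 and 5 of 6 Cy3 values above it, and replicate 14 alone brought the orientations into overlap. The mean of 0.24 ± 1.60 (SD, n = 12) joined a Cy5 mean of -0.89 ± 0.69 (SD, n = 6) and a Cy3 mean of 1.37 ± 1.45 (SD, n = 6). Its mean was -0.08 without replicate 5, so the sign of the overall mean rested on that array.

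The difference between dye orientations was not used to choose the genes and was tested for all probes with limma. The test asked whether a probe's ratio depends on which dye carried the knockout. On 0 of the 8 member probes did the orientations fail to overlap, against 0.676% of all probes. No member probe passed (0 of 8 at an adjusted p below 0.05, against 1 of 18503 probes, 0.0054%). At an unadjusted p below 0.05, 2 of the 8 differed, against 1417 of all probes (7.66%). They were H2-Eb1, at -2.27 ± 0.61 (SE) for Cy5 minus Cy3 (unadjusted p = 0.00242, limma adjusted p = 0.461), and Cybb, at -1.20 ± 0.46 (SE; unadjusted p = 0.0230, limma adjusted p = 0.581). Fcer1g, at -1.16 ± 0.79 (SE), and Mrc1, at -0.54 ± 0.54 (SE), did not pass (limma adjusted p = 0.760 and 0.837). The Lyz2 probes differed by 0.37 ± 0.53 and 0.58 ± 0.44 (SE; limma adjusted p = 0.896 and 0.786), Cd68 by 0.24 ± 0.34 (SE; 0.893) and Tyrobp by 0.75 ± 0.76 (SE; 0.838). In Fcer1g, Mrc1, Cybb and H2-Eb1 the Cy5 and Cy3 means had opposite signs, while both were below 0 in the Lyz2 probes, Cd68 and Tyrobp. If the Cy3 arrays had not been turned before deposit, the fitted mean would be -1.13 for H2-Eb1 and 0.18 and 0.29 for the Lyz2 probes.

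**Figure D3:**
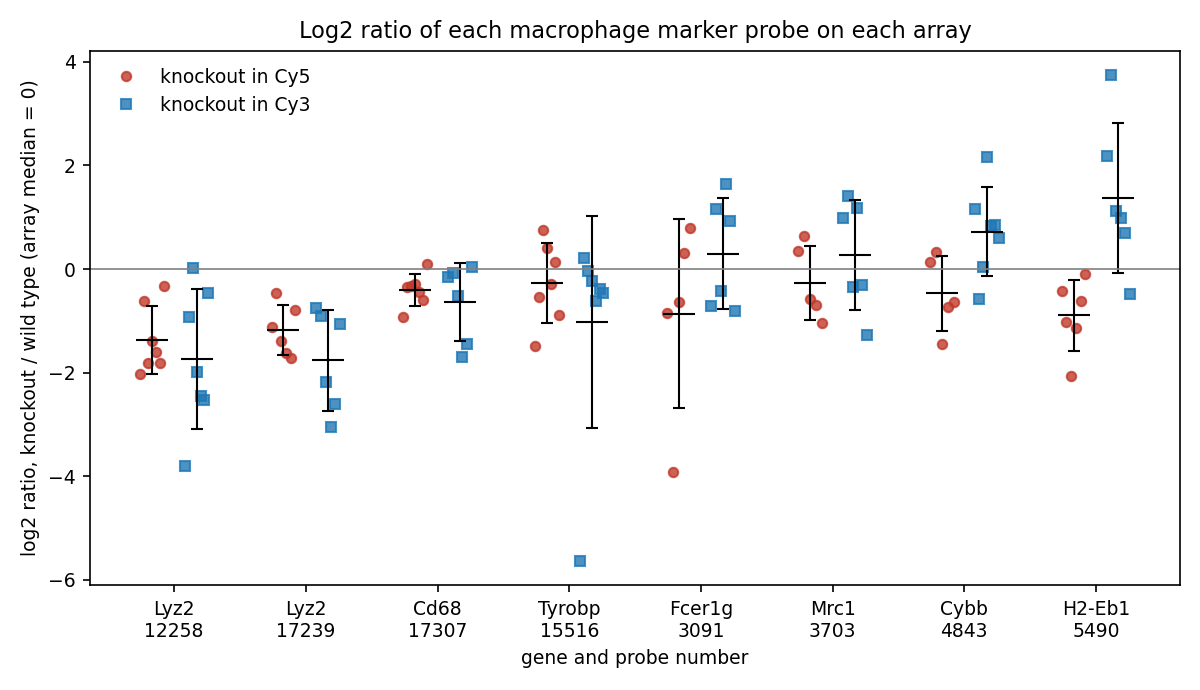
Log2 ratio of knockout over wild type (y axis) for each member probe (x axis, gene and probe number), 1 symbol per array, with red circles for knockout in Cy5 and blue squares for knockout in Cy3; black lines are the mean and SD of each orientation. Lyz2 lies below 0 in both orientations apart from 1 value, while H2-Eb1 has Cy5 values below 0 and Cy3 values mostly above it.

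By mean ratio the members ran in the order Lyz2 (both probes), Tyrobp, Cd68, Fcer1g, Mrc1, Cybb and H2-Eb1. From Tyrobp onward the means of neighbours in this order differed by less than the SD of either. Of the 8 probes 5 had a mean below 0, with a median of -0.37, against 49.0% of the tested probes and a median of 0.0066. The residual SD after the dye term ran from 0.56 for Cd68 to 1.55 for Tyrobp, against a median of 0.90 over the tested probes. Cd68 also had the smallest SD of the 8 before the dye term was removed, and H2-Eb1 the largest (1.60, against 1.54 for Tyrobp). Ratios of small whole numbers, a stand-in for dim spots, made up 1 value or none on each member probe. That was 0% to 9.09% of a probe's values, against a median of 15.4% over the tested probes.

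Other myeloid genes were taken from 7 lists covering lysozyme and neutrophil granule genes, lysosomal genes, Fc receptors and ITAM signalling, scavenger and lectin receptors, the NADPH oxidase, class II presentation, and myeloid identity. Besides the members these lists held 100 genes, of which 66 had a probe and 62 were tested with 89 probes. The lists were chosen with earlier results of these data known. By limma 0 of the 89 probes were called in either direction, against 0.0324% of all probes called lower and 0% called higher. With so few calls on the whole array, 0 among 89 says little about these genes. At an unadjusted p below 0.05, 6 of the 89 probes were lower and 0 higher. That was 6.74% lower, against 2.76% lower and 2.30% higher over all probes. The 89 probes are described further here. Their median mean ratio was -0.07, against 0.0066 over all tested probes, and 64.0% had a mean below 0. The Lyz2 probes lay below every one of the 89, whose lowest mean was -0.83. Lyz2 was chosen with its low ratios known, so this placing is a description and supports nothing further.

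Of the 6 probes lower at an unadjusted p, 5 were lysosomal. They made up 23.8% of the 21 tested probes of that list, against 2.76% of all probes. They were Gpnmb, a membrane glycoprotein of phagocytes and pigment cells (-0.61 ± 0.49, SD), Hexa, a subunit of beta-hexosaminidase (-0.49 ± 0.47), both probes of the cholesterol-binding protein gene Npc2 (-0.47 ± 0.43 and -0.40 ± 0.29), and Lamp2, a lysosomal membrane protein (-0.30 ± 0.32), each over 14 arrays. Gpnmb, Hexa and both Npc2 probes were below 0 on 13 of 14 arrays and Lamp2 on 12. None passed over all probes (limma adjusted p = 0.532 for Gpnmb, 0.735 for Hexa, 0.895 and 0.868 for Npc2 and 0.895 for Lamp2). Hexa, Npc2 and Lamp2 are named after their values were seen. The list's 21 probes had a median of -0.15, and its highest was a Lamp1 probe at 0.36 ± 1.48 (SD, n = 14). Lysosomal genes are also active in fibroblasts.

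The sixth of these probes was Mpeg1, which encodes the macrophage perforin-2. It stood at -0.53 ± 0.46 (SD, n = 14), from -1.53 to 0.07 and below 0 on 13 of 14 arrays (limma adjusted p = 0.873). It was the lowest of the 18 tested probes for myeloid identity, whose median was -0.06. The highest was a probe of Coro1a, a leukocyte actin-binding protein, at 0.78 ± 1.61 (SD, n = 13), and the other Coro1a probes stood at 0.49 ± 1.68 (SD, n = 10) and -0.03 ± 0.58 (SD, n = 13). Of 6 genes set as defining for the lineage (Csf1r, Adgre1, Itgam, Ptprc, Cd14 and Spi1), Ptprc, the leukocyte phosphatase CD45, was the 1 with a tested probe. That probe stood at -0.39 ± 1.37 (SD, n = 11, limma adjusted p = 0.913), with 90.9% of its values ratios of small whole numbers. A further Ptprc probe, measured on 8 arrays and not tested, had a mean of 0.05 ± 1.97 (SD).

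The remaining lists spanned 0. Among neutrophil granule genes, 17 probes had a median of -0.03, from a probe of S100a9, a calcium-binding alarmin subunit, at -0.83 ± 2.21 (SD, n = 11) to a probe of the iron-binding lactoferrin gene Ltf at 0.61 ± 1.56 (SD, n = 13). The other S100a9 probe stood at 0.00015 ± 1.37 (SD, n = 10) and the other Ltf probe at -0.02 ± 1.01 (SD, n = 11). Fc receptor and ITAM signalling genes had a median of -0.04 over 13 probes, from a probe of the IgG receptor gene Fcgr3 at -0.37 ± 0.66 (SD, n = 14) to a probe of the Src family kinase gene Fgr at 0.53 ± 2.15 (SD, n = 13). All 3 Fcgr3 probes had means below 0, the other 2 at -0.23 and -0.22, and none passed. The other Fgr probe stood at 0.01 ± 1.16 (SD, n = 11).

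Scavenger and lectin receptor genes had a median of -0.13 over 7 probes, from a probe of the macrophage scavenger receptor gene Msr1 at -0.61 ± 1.70 (SD, n = 13) to the related receptor gene Marco at 0.24 ± 1.58 (SD, n = 12). The other Msr1 probe, measured on 8 arrays and not tested, had a mean of 1.41 ± 2.22 (SD). NADPH oxidase partners of Cybb lay between the GTPase gene Rac2 at -0.09 ± 0.67 (SD, n = 12) and a probe of Rac1 at 0.14 ± 0.38 (SD, n = 14). Class II presentation genes had a median of 0.01 over 8 probes, and both ends were probes of the invariant chain gene Cd74, at -0.38 ± 1.01 (SD, n = 13) and 0.16 ± 0.67 (SD, n = 11). None of the tested probes was called by limma, and most values lay within the spread between arrays.

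**Figure D4:**
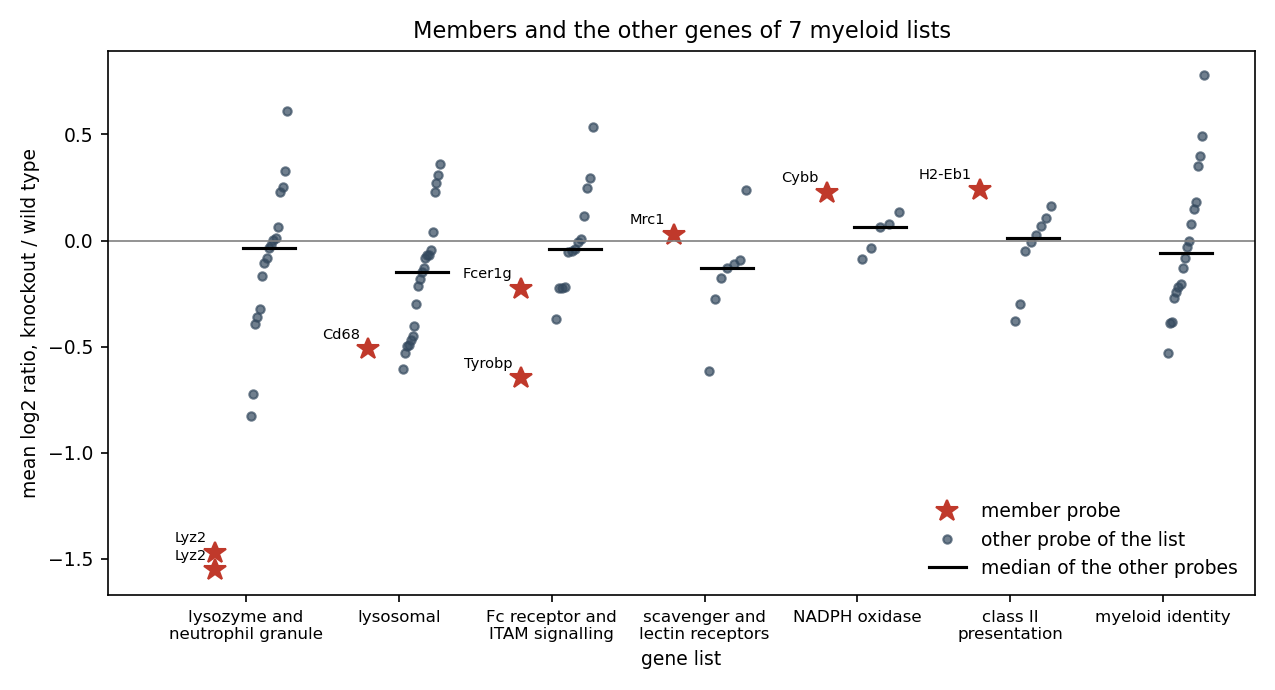
Mean log2 ratio of knockout over wild type (y axis) for the member probes (red stars, named) and for the other tested probes (dark circles, with a black bar at their median) of each of 7 myeloid gene lists (x axis). The Lyz2 probes at -1.55 and -1.47 lie below all 89 other probes, whose means run from -0.83 to 0.78. Lyz2 was chosen with its ratios known, so its place here is a description.

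Lists for other cells were read beside the members. The 26 tested fibroblast probes had a median of 0.007, from the proteoglycan gene Dcn at -0.65 ± 0.72 (SD, n = 14) to a Col1a1 probe at 0.73 ± 2.34 (SD, n = 13). The other Col1a1 probe, measured on 9 arrays and not tested, had a mean of -0.56 ± 1.30 (SD). Limma called 0 of the tested probes. At an unadjusted limma p below 0.05, 2 were lower (Dcn and Postn), or 7.69% against 2.76% of all probes. The 7 endothelial probes had a median of -0.04, with 0 called. At an unadjusted limma p below 0.05, 1 was lower (14.3%, against 2.76% of all probes), an Eng probe at -0.78 ± 1.12 (SD, n = 11). The other Eng probe stood at -0.04 ± 0.31 (SD, n = 14). Highest among the 7 was a probe of Cdh5 at 0.40 ± 1.66 (SD, n = 11). The other Cdh5 probe, measured on 5 arrays and not tested, had a mean of -0.74 ± 1.37 (SD). Mast cells, which also use the Fcer1g chain, were represented by Cpa3 at -0.32 ± 1.32 and Tpsb2 at -0.09 ± 1.60 (SD, n = 12 each). Lymphocytes were represented by Ms4a1 at 0.03 ± 0.74 and Nkg7 at 0.15 ± 0.55 (SD, n = 13 each). The part of a change in cell makeup in the Lyz2 and Cd68 ratios was not tested.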

How the data were processed

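Total RNA was labelled indirectly with Cy3 or Cy5 and hybridised with the other genotype's RNA on 14 two-colour arrays, per the labels' protocols. The protocol text also speaks of organs and a reference pool from control animals; the channel labels, wild-type fibroblasts, were followed. What the authors deposited is a log2 ratio per probe and array, for 20355 probes; scanner, background correction, normalization and build are not stated in the sources used here. The log base was read from steps between ratios of small whole numbers.

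Values beyond 12 in size (coded extremes, 91 to 315 per array) were set to missing, and each array was centred on its median (-0.334 to 0.244 as deposited). A probe was tested with values on at least 10 arrays and at least 4 of each dye, which left 18503 probes. limma 3.58.1 (R 4.3.3) fitted a mean and a dye term with lmFit and eBayes, with Benjamini-Hochberg adjustment over all probes and a threshold of 0.05. The fit was tested on simulated data. Whole-number ratios used numbers up to 10, matched within 0.0011. Gene symbols came from the platform annotation: 14030 probes had 1 symbol, 5 several and 6320 none, and 13994 were matched by gene ID to RefSeq. Precision is limited by the number of arrays, and ratios carry no depth.

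Named genes were all member probes, the lowest and highest tested probe and any called gene of each list, the defining myeloid genes, and the 5 probes most like Lyz2 by Pearson's r over at least 12 arrays. Members and lists were chosen with earlier results of these data known.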

Additional observations from a re-analysis of the deposited data

How the results depend on the processing

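Of 160 recomputed means of member probes, 157 moved by less than 1 SD between arrays, which for probes near 0 includes changes of sign. Turning the Cy3 arrays changed the sign of 7 of the 8 means, to 0.18 and 0.29 for Lyz2, 0.08 for Cd68, 0.38 for Tyrobp, -0.27 for Mrc1, -0.62 for Cybb and -1.13 for H2-Eb1. Fcer1g stood at 0.30 with the knockout in Cy3 alone, and with it in Cy5 alone Mrc1, Cybb and H2-Eb1 stood at -0.27, -0.47 and -0.89. Leaving out single arrays changed the sign for Fcer1g (-0.41 to 0.14), Mrc1 (-0.11 to 0.16) and H2-Eb1 (-0.08 to 0.45). Without single arrays the Lyz2 means ran from -1.68 to -1.38 (probe 12258) and from -1.56 to -1.33 (probe 17239), and without replicates 1 and 2, chosen after seeing the data, the first was -1.33. Quantile normalization gave -1.62 and -1.72. Turning exchanges the dye term and the mean, so the dye terms (the Cy5 mean minus the midpoint of both orientations) reversed to -1.55 and -1.47 for Lyz2, -0.52 for Cd68, -0.65 for Tyrobp, 0.004 for Mrc1, 0.13 for Cybb and 0.24 for H2-Eb1, and that of Tyrobp ran from -0.01 (without replicate 2, a reversal) to 0.48 without single arrays. With the Cy3 arrays turned, the dye term of Lyz2 probe 17239 also passed the threshold. That term is then the mean ratio known when the gene was chosen, so its passing supports nothing further. No other alternative changed the direction of a member's dye term or brought it past the threshold. Probes called lower numbered 6, against 1 with the Cy3 arrays turned, 0 with either dye orientation alone, 10 with values required on all 14 arrays and 4 to 9 without single arrays. Probes called higher numbered 0, against 1 with quantile normalization, 1 with values on all arrays and 0 to 1 without single arrays (1 without replicate 12). A dye term was called for 1 probe, against 6 with the Cy3 arrays turned, 0 with values on all arrays, 0 with a random block by number range and dye, 2 without replicates 1 and 2, and 0 to 3 without single arrays (3 without replicate 14, and 0 without replicate 2, 3, 4, 5, 7, 9, 10, 11, 12 or 13). Turning changes places between terms by construction, single orientations hold fewer arrays and full values fewer probes. For the other moves the cause was not tested. The other myeloid probes had 0 calls under each alternative, but not all 89 were tested where values on all arrays were required, and with 1 dye orientation 0 probes were called lower on the whole array. No paired analysis was possible because the arrays form 1 group with no second group to pair by number; each log2 ratio is already a difference between both genotypes on 1 array. The arrays' missing signal levels limit how far a dim spot can be told from a measured one.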
